A study of Mus musculus with 16 samples.

Results

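Macrophage and complement genes were followed in the dorsal root ganglia of naive mice. They were 10 genes of 53379 in the deposited tables, C1qa, C1qb, C1qc, Cx3cr1, Csf1r, Tyrobp, Fcer1g, Lyz2, Ptprc and Cybb, taken by gene symbol, and each had 1 row in each of the 16 libraries. RNA-seq libraries came from 2 fractions. The IP fraction was RNA from a pulldown of tagged ribosomes of Nav1.8 neurons (translating ribosome affinity purification), and the IN fraction was total RNA of the whole ganglion. The groups were female IP, male IP, female IN and male IN, with 4 libraries each. All mice were Nav1.8Cre/Rosa26fstrap littermates on a C57BL/6J background, aged 8 to 12 weeks, and none had a treatment in the labels. The Scn10a promoter drives Cre (Scn10a encodes the channel Nav1.8), so that the fusion EGFP-L10a is made in neurons that use or have used this promoter, and both fractions carry the same alleles. A pool held ganglia of 3 mice of one sex, which gives 24 mice in 8 pools, and each pool gave 1 IP and 1 IN library, so no value belongs to a single animal.

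Dorsal root ganglia hold the cell bodies of sensory neurons, wrapped by satellite glia, together with Schwann cells, vessels, connective tissue and resident macrophages. The macrophages take up debris and signal to neurons through cytokines and complement. C1q is the recognition part of the classical complement pathway. It is built from A, B and C chains and in many tissues is made mainly by macrophages and their relatives. CSF1R is the receptor that macrophages need to survive, and CX3CR1 binds fractalkine, a chemokine that neurons make. TYROBP (DAP12) and the Fc receptor gamma chain, encoded by Fcer1g, are adaptors that carry signals of activating receptors by a tyrosine motif called ITAM. Lysozyme (Lyz2), CD45 (Ptprc) and gp91phox (Cybb), the catalytic part of the phagocyte NADPH oxidase, are broader, since granulocytes also make lysozyme and gp91phox and all leukocytes carry CD45.

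The deposited values were TPM, a gene's share of a library's transcripts after correction for gene length. Read numbers are not held in such values, and the depth behind them is unknown. The protein-coding share of the TPM was 44.9% to 79.5% in IP libraries and 9.58% to 13.3% in IN libraries, so a TPM is a share of a different whole in the 2 fractions. For comparisons between fractions the TPM were therefore divided by a factor per library, the median of ratios over tested genes, and are called scaled TPM. Scn10a averaged 381 ± 46.8 scaled TPM over 8 IP libraries and 125 ± 12.4 over 8 IN libraries (SD), a log2 change of 1.60. All 16 of the listed nociceptor genes were higher in IP at a limma adjusted p under 0.05. Of the 16099 genes tested 12783 passed that threshold, 51% of them higher. Female pool 2 stood apart in its IP library, with the lowest protein-coding share (44.9%) and the lowest Scn10a level of the IP libraries (282 scaled TPM). The values it moves most are given with and without it.

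All 10 genes were low in IP and higher in IN. In scaled TPM the lowest IN library lay above the highest IP library for 10 of 10 genes, as it did for 26% of the 16099 genes tested. With deposited TPM, without scaling, the groups were apart for 1 of 10, Fcer1g, against 0.603% of genes. No value of the 10 genes was 0 in any library (0 values). The IP mean was 14.2% of the IN mean for C1qb, 13.1% for C1qa, 12.7% for C1qc and 11.8% for Csf1r. It was 10.9% for Lyz2, 10.5% for Tyrobp, 9.25% for Cybb, 8.99% for Cx3cr1, 8.11% for Fcer1g and 6.75% for Ptprc, the lowest of the 10. Without female pool 2 the percentages were 5.03% (Ptprc) to 12.5% (C1qb). In deposited TPM these shares ran from 29.8% to 66.1%. Every one of the 10 genes was lower in IP in 8 of 8 pools on either scale. IP and IN of a pool came from the same ganglia, so these percentages do not measure numbers of cells. Between pools, fewer cells of a type and less RNA per cell cannot be told apart in bulk libraries.

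**Figure D1:**
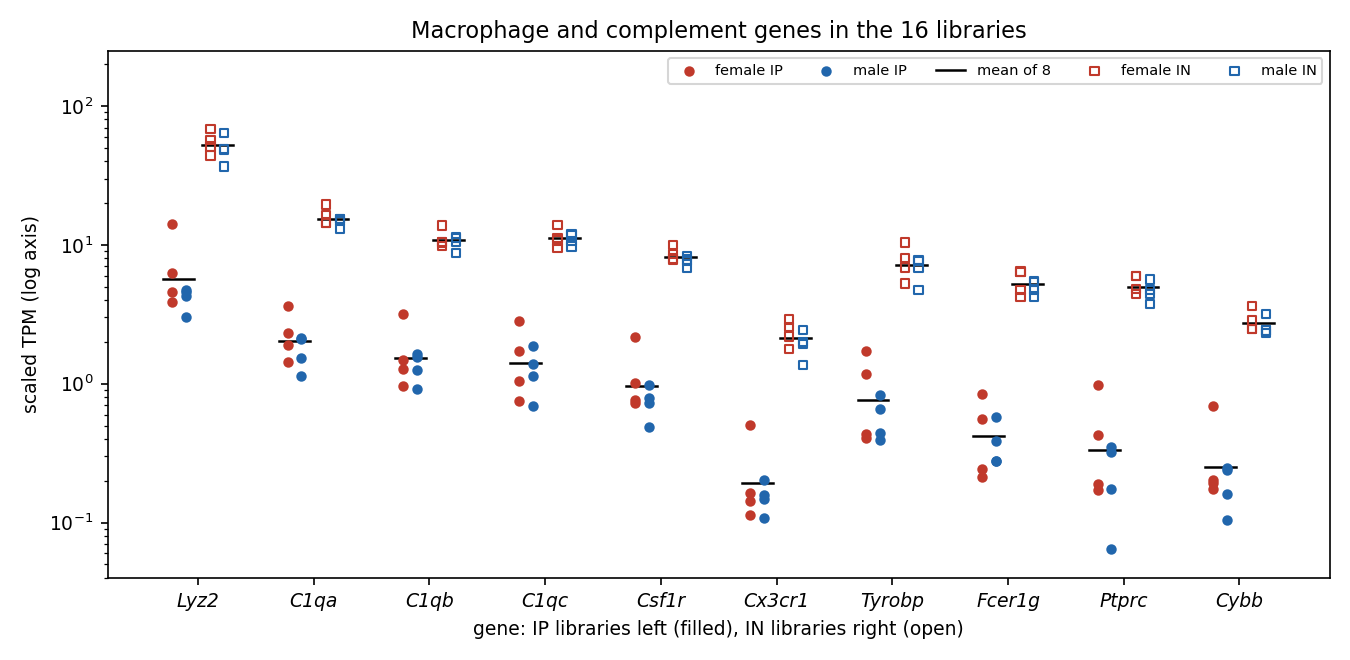
Scaled TPM (log axis) of the 10 genes in each of the 16 libraries, IP libraries as filled circles on the left and IN libraries as open squares on the right of each gene, female in red and male in blue, with the mean of 8 as a bar. For each gene the IP points lie below all IN points, and the highest IP point is a female one, that of pool 2.

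In the limma fit of IP minus IN without a filter on low values, all 10 of 10 genes were lower at an adjusted p under 0.05, where 39.3% of the 35913 genes were. The fit used all 16 libraries with the pool as a block. With the filter used for the main fit (a mean of at least 1 TPM in either fraction) 9 were tested and 9 were lower, against 38.9% of 16099 genes. Cx3cr1 missed that filter at 0.983 TPM in IN, while Fcer1g, Ptprc and Cybb passed it through IN alone and so had to differ. The median of the 9 genes was a log2 change of -2.25, beside 0.02 over all genes tested. Without female pool 2 the median was -2.31, and without female pools 2 and 4, which had the lowest protein-coding shares, it was also -2.31. All log2 changes refer to TPM with 1 added, which understates the change of low genes.

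The C1q genes lie side by side on chromosome 4 (minus strand, GRCm38) with 0 other annotated genes between them. C1qb spans 136880129 to 136886187, C1qc 136889804 to 136893065 and C1qa 136895917 to 136898803, so that 3 genes fit in 18675 bases. C1qa (ENSMUSG00000036887.5) had a lowest, median and highest level of 1.13, 1.99 and 3.64 scaled TPM in IP, against 13.1, 15.0 and 19.5 in IN. Its change was -2.47 ± 0.08 (log2, SE of the fit, adjusted p = 4.4e-08). Its groups did not overlap in scaled TPM, as for 26% of genes tested, and overlapped in deposited TPM. C1qb (ENSMUSG00000036905.8) had 0.911, 1.38 and 3.19 in IP, against 8.76, 10.5 and 13.8 in IN, a change of -2.25 ± 0.09 (adjusted p = 4.4e-08). C1qc (ENSMUSG00000036896.5) had 0.689, 1.26 and 2.81 in IP, against 9.47, 11.0 and 13.9 in IN, a change of -2.37 ± 0.11 (adjusted p = 5.3e-08). The mean shares of the chains were close in the fractions, and single IP libraries spread more, with C1qa at 36.0% to 52.5% and C1qb at 24.0% to 37.6%; this was not tested. C1qa made up 41.3 ± 5.20% of the C1q sum in IP and 41.3 ± 1.28% in IN, C1qb 30.9 ± 4.30% in IP and 28.8 ± 1.08% in IN, and C1qc 27.9 ± 4.10% in IP and 29.9 ± 1.21% in IN (SD over 8 libraries). C1qa was the highest chain in 15 of 16 libraries.

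The C1q genes were all lower in IP, and whether they varied together over pools was not tested. The sequences before their start sites are shown as a description, from RefSeq (GRCm38.p6), where C1qb and C1qc were found and C1qa was not. Each stretch is 280 bases on the minus strand, 250 before and 30 after the start site, chr4:136886171-136886450 for C1qb and chr4:136892885-136893164 for C1qc. Capitals mark GAGGAA, or TTCCTC where it lies on the opposite strand, the core letters bound by PU.1, a transcription factor of macrophages.
C1qb: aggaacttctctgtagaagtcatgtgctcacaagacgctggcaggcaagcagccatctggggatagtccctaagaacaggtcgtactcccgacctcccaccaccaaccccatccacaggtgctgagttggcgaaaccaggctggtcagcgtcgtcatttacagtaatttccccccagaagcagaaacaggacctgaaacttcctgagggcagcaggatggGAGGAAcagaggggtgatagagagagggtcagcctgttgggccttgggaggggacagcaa
C1qc: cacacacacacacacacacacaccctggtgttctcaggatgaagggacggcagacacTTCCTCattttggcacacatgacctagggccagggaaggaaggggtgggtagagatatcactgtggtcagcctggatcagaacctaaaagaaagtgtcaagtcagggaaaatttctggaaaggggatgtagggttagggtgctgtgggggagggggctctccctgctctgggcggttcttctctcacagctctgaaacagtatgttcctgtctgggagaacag
The match lies at bases 221 to 226 in C1qb and 58 to 63 in C1qc. Searched on both strands, these letters occurred in 28.28% of 32851 RefSeq windows of 300 bases. Of the 10 genes 7 had a window, and 4 of the 7 held them, Ptprc and Cybb besides these. A match of letters is a description and not a binding site.

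Csf1r (ENSMUSG00000024621.15, chromosome 18, plus strand, 61105572 to 61132149), the receptor of the growth factors CSF1 and IL-34, had a lowest, median and highest level of 0.49, 0.779 and 2.18 scaled TPM in IP, against 6.78, 7.92 and 10.03 in IN. Its change was -2.25 ± 0.09 (adjusted p = 4.4e-08). It overlaps Hmgxb3 on the other strand by 871 bases, and that gene was at 18.7 TPM in IP and 3.22 in IN. Whether the authors counted by strand is not known here, so reads in that overlap cannot be told apart. Cx3cr1 (ENSMUSG00000052336.7, chromosome 9, minus strand, 119901616 to 120069879) was the lowest of the 10, with 0.108, 0.154 and 0.505 scaled TPM in IP, against 1.36, 2.10 and 2.90 in IN. Without the filter its change was -1.39 ± 0.08 (adjusted p = 1.2e-06). Its annotated span overlaps Wdr48, at 39.9 TPM in IP and 7.80 in IN, and Gorasp1, at 17.9 and 2.83, so its level is uncertain as well.

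The ligands of these receptors were measured in the same libraries. Csf1 was at 3.84 ± 0.147 scaled TPM in IP and 5.39 ± 0.395 in IN (log2 -0.40 ± 0.05, limma adjusted p = 1.7e-05). Il34 was at 6.33 ± 1.80 in IP and 11.8 ± 2.22 in IN (-0.83 ± 0.11, adjusted p = 6.3e-05). Cx3cl1, which encodes fractalkine, was at 0.864 ± 0.130 in IP and 3.18 ± 0.655 in IN (-1.15 ± 0.09, adjusted p = 8.6e-07), each mean being over 8 libraries with its SD. All 3 were lower, and for all 3 the direction turned in deposited TPM, at 1.47 for Csf1, 1.22 for Il34 and 0.25 for Cx3cl1, where the median gene shifted by 1.84. With quantile normalization the Csf1 call was lost (-0.06, adjusted p = 0.33). The receptors Csf1r and Cx3cr1 were lower in IP on every one of these scales that tested them.

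Tyrobp (ENSMUSG00000030579.10, chromosome 7, plus strand, 30413760 to 30417585) had 0.394, 0.549 and 1.73 scaled TPM in IP, against 4.72, 7.29 and 10.4 in IN. Its change was -2.23 ± 0.07 (adjusted p = 4.4e-08). Fcer1g (ENSMUSG00000058715.11, chromosome 1, minus strand, 171229572 to 171234365) had 0.214, 0.334 and 0.844 in IP, against 4.20, 5.09 and 6.43 in IN. Its change was -2.13 ± 0.07 (adjusted p = 4.4e-08). In scaled TPM neither adaptor's groups overlapped, and IN lay above IP without overlap for 26% of the 16099 genes tested. In deposited TPM the groups overlapped for Tyrobp and not for Fcer1g. Of 22 receptors and signalling proteins listed as their partners 6 were tested, and 6 were lower and 0 higher (median log2 -1.39), where 38.9% of all genes tested were lower. Of the 6, 3 passed the filter through IN alone and so had to differ. The low-affinity IgG receptors Fcgr2b and Fcgr3, the second of which signals through the Fcer1g product, were at -1.86 and -1.71. The phosphatase gene Ptpn6 was at -0.71 and the kinase gene Lyn at -0.68 (adjusted p = 0.00064 and 7e-07), and in deposited TPM these 2 turned, at 0.71 and 0.85. With quantile normalization the Ptpn6 call was lost (adjusted p = 0.102).

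Lyz2 (ENSMUSG00000069516.8, chromosome 10, minus strand, 117277331 to 117282321) encodes the lysozyme of macrophages and was the highest of the 10 genes in 16 of 16 libraries. It had 3.00, 4.61 and 14.2 scaled TPM in IP, against 36.7, 50.1 and 68.3 in IN, and a log2 change of -3.09 ± 0.14 (adjusted p = 4.7e-08). Its near-identical neighbour Lyz1 was at 0.456 scaled TPM in IP and 4.12 in IN, 7.87% of Lyz2 there, and how reads were split between them is not known. Ptprc (ENSMUSG00000026395.16, chromosome 1, minus strand, 138062861 to 138175708), the gene of the leukocyte surface phosphatase CD45, had 0.0646, 0.255 and 0.981 in IP, against 3.73, 4.78 and 5.99 in IN (-2.17 ± 0.06, adjusted p = 4.4e-08). Its span of IP levels was the widest relative to its median.

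Cybb (ENSMUSG00000015340.10, chromosome X, minus strand, 9435252 to 9487771) had 0.104, 0.198 and 0.693 scaled TPM in IP, against 2.32, 2.48 and 3.65 in IN. Its change was -1.58 ± 0.05 (adjusted p = 4.4e-08). Among 6 genes listed as partners of the oxidase 4 were tested, with 3 lower and 0 higher. Among the lower ones were Cyba, which encodes the p22phox subunit (-1.79), and the cytosolic subunit gene Ncf1 (-1.64). The small GTPase gene Rac1, used by most cells, was at 0.37 and did not pass (adjusted p = 0.18). In deposited TPM Cyba and Ncf1 kept their sign. The stretch around the start site of Cybb is shown because it held both patterns searched, just after the start site (RefSeq, GRCm38.p6, chrX:9469295-9469574, minus strand, 280 bases). Capitals mark, on the opposite strand, GGAA and GAAA with any 2 bases between them, at bases 254 to 263, a pattern bound by PU.1 with an interferon regulatory factor, and GAGGAA at 260 to 265, which overlaps it.
Cybb: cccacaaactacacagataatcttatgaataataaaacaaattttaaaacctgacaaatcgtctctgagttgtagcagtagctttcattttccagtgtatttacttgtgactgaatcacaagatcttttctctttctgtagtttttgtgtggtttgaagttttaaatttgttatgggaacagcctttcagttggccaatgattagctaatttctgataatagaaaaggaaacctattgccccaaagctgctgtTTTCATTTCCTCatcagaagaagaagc
The longer pattern occurred in 2.715% of the 32851 windows and in 1 of the 7 genes with a window.

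Levels per length can be ordered within a fraction in deposited TPM. The order in IP was Lyz2 (11.9 TPM), C1qa (4.32), C1qb (3.28), C1qc (2.98), Csf1r (2.02), Tyrobp (1.59), Fcer1g (0.888), Ptprc (0.679), Cybb (0.531) and Cx3cr1 (0.402). Neighbours differed by more than the larger SD at Lyz2 against C1qa, C1qa against C1qb and C1qc against Csf1r, and at no other step. In IN it was Lyz2 (24.0 TPM), C1qa (7.09), C1qc (5.13), C1qb (4.96), Csf1r (3.73), Tyrobp (3.33), Fcer1g (2.40), Ptprc (2.28), Cybb (1.25) and Cx3cr1 (0.983). The steps beyond the SD were Lyz2 against C1qa, C1qa against C1qc, C1qb against Csf1r and Ptprc against Cybb. The order differed only in the places of C1qb and C1qc, whose difference was within the SD in both fractions.

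The make-up of the 10 genes' summed TPM, which no scaling between libraries can change, was not the same in the fractions. The C1q genes held 37.8 ± 3.92% of it in IP and 31.3 ± 2.38% in IN (SD over 8 libraries), and the share was higher in IP in 8 of 8 pools. C1qb alone held 11.6 ± 1.85% in IP and 9.03 ± 0.69% in IN, also higher in 8 of 8 pools. Ptprc held 2.22 ± 0.86% in IP and 4.14 ± 0.32% in IN, and Cx3cr1 1.38 ± 0.20% in IP and 1.79 ± 0.36% in IN, each higher in IP in 0 of 8 pools. Lyz2 held 41.0 ± 2.96% in IP and 43.3 ± 2.46% in IN, higher in IP in 2 of 8. The summed TPM of the 10 genes per 100 TPM of Scn10a was 3.84 ± 2.91 in IP and 96.9 ± 16.5 in IN, and without female pool 2 it was 2.83 ± 0.630 in IP and 94.7 ± 16.5 in IN. These shares were chosen after the values were seen and were not tested.

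**Figure D2:**
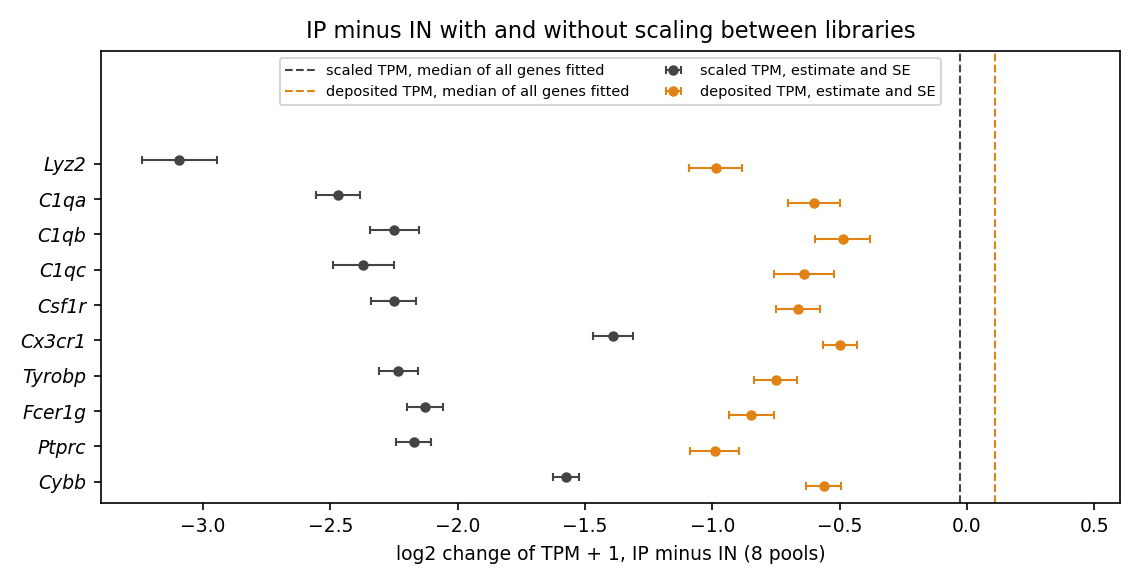
Log2 change of TPM with 1 added, IP minus IN over 8 pools, for the 10 genes without a filter on low values, as estimate and SE, from scaled TPM (black) and deposited TPM (orange), with dashed lines at the median of all genes fitted. All 10 estimates lie below both lines, between -3.09 and -1.39 scaled and between -0.99 and -0.49 deposited.

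The size of the change depended on the scaling, and its direction did not. With deposited TPM and no filter, all 10 genes were lower (log2 -0.99 to -0.49), where 9.82% of 35913 genes were lower. With the filter, 5.81% of genes were lower. With quantile normalization the median of the 9 tested genes was -1.96, and with scaling by the sum of protein-coding TPM it was -2.41.

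The pools differed in how much of the IN level was found in IP. The median over the 10 genes was 7.37%, 19.4%, 8.28% and 11.6% in female pools 1 to 4 and 9.68%, 13.03%, 8.38% and 6.18% in male pools 1 to 4. Female pool 2 gave the highest level of all IP libraries for 10 of 10 genes, on the scaled and on the deposited scale. Its share of IN was the highest for 9 of 10 genes in scaled TPM, Fcer1g being highest in male pool 2, and for 5 of 10 in deposited TPM. The IN library of the same pool was also the highest IN library for 7 of 10 genes. At the other end, male pool 4 had the lowest share for 7 of 10, down to 1.46% for Ptprc, and its IP library had the highest protein-coding share (79.5%).

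Genes of other cells of the ganglion also differed between pools. In female pool 2 the list median was nearest to 0 for satellite glia (-1.73, against -3.43 to -2.47 in the other pools), myelinating Schwann cells (-1.69, against -3.15 to -2.40) and fibroblasts (-1.78, against -3.09 to -1.93). The nociceptor median was 1.06 there and 1.495 to 1.72 in the others. The part of the protein-coding share or of other cells' RNA in the values of the 10 genes was not tested. Without female pool 2 the changes of the tested genes ran from -3.22 to -1.59, all 9 lower.

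**Figure D3:**
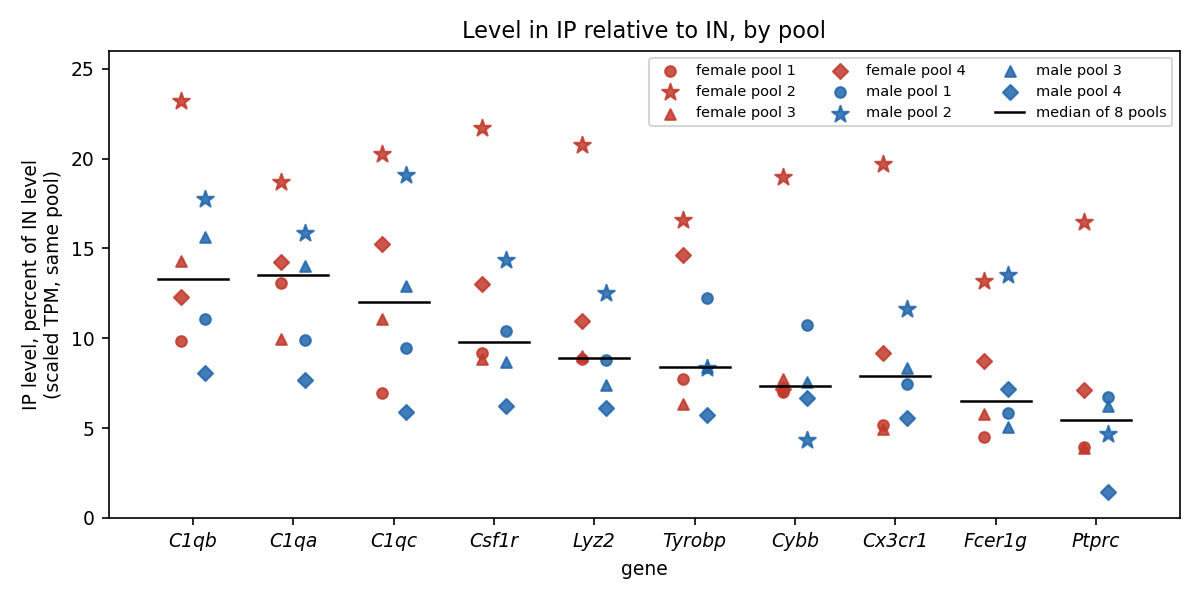
IP level as a percentage of the IN level of the same pool (scaled TPM) for the 10 genes, female pools in red and male pools in blue, with a marker shape per pool number and the median of 8 pools as a bar. Female pool 2 (red star) is highest for 9 genes, at 16.45% to 23.2%, and male pool 4 (blue diamond) is lowest for 7.

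Further lists set the 10 genes beside other cell types. They were compiled with earlier results of these data known, and their counts describe them only. Of all genes tested 38.9% were lower as scaled and 5.81% in deposited TPM. Genes that passed the filter through IN alone numbered 6 among the other macrophage genes, 3 among the microglia genes and 3 among the endothelial genes. Of 33 other macrophage genes 26 were tested, 20 lower and 4 higher (median log2 -1.71), and in deposited TPM 16 were lower and 9 higher. The markers Adgre1 (F4/80) and Cd68 averaged 0.220 and 0.104 scaled TPM in IP, against 2.97 and 1.27 in IN. Their IP means were 7.40% and 8.20% of the IN means. Other genes of this list lay closer or higher, with 35.45% for Aif1, 55.65% for Cd83 and 119.2% for Lcp1. Apoe, which satellite glia also make, was at -3.13, and the antigen presentation gene Cd74 at -3.03. The lysosomal protease gene Ctsb (0.90) and the lectin gene Lgals3 (0.63), both used by many cells, were higher. Among 8 microglia genes 5 were tested, 3 lower and 1 higher, with P2ry12 at -1.59, Tmem119 at -1.55 and Olfml3 at -0.06 (adjusted p = 0.74). Of 25 genes of lymphocytes, granulocytes and mast cells 6 were tested, 5 lower and 1 higher. The neutrophil genes S100a9 (-3.29), S100a8 (-3.23) and Retnlg (-1.89) were among them, and the higher one was Kit (0.76). The T cell genes Cd3d, Cd3e and Cd3g were listed at 0 in all IP libraries and reached at most 0.130 scaled TPM in IN. S100a9, S100a8 and Retnlg were lower in IP, as were Lyz2, Cybb, Fcer1g and Ptprc, which neutrophils also express. The part of neutrophils in the values of any of the 10 genes was not tested, nor was whether these 4 varied together with the neutrophil genes. The list's summed level was 30.5 to 76.0 scaled TPM in IP and 83.9 to 201.4 in IN, and 5 of its 25 genes were listed at 0 in all IP libraries. Without Kit, which made up most of it in IP, the sum was 5.47 to 29.5 in IP and 61.0 to 177.4 in IN.

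The glial and stromal lists fell as well, where 38.9% of all genes tested were lower as scaled and 5.81% in deposited TPM. All 16 of the satellite glia genes were lower (median log2 -2.79), 14 of 14 of the myelinating Schwann cell genes (-2.59), 12 of 12 of the fibroblast genes (-2.44) and 10 of 11 of the endothelial genes (-1.77). In deposited TPM 13 satellite glia genes were lower and 3 higher, 12 Schwann cell genes lower and 1 higher, 8 fibroblast genes lower and 1 higher, and 7 endothelial genes lower and 2 higher. The summed level of the 10 genes was 7.39 to 30.8 scaled TPM in IP and 91.6 to 154.5 in IN. The sums were 311 to 650 in IP and 1708 to 2070 in IN for satellite glia, and 423 to 1098 in IP and 2624 to 3866 in IN for Schwann cells.

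**Figure D4:**
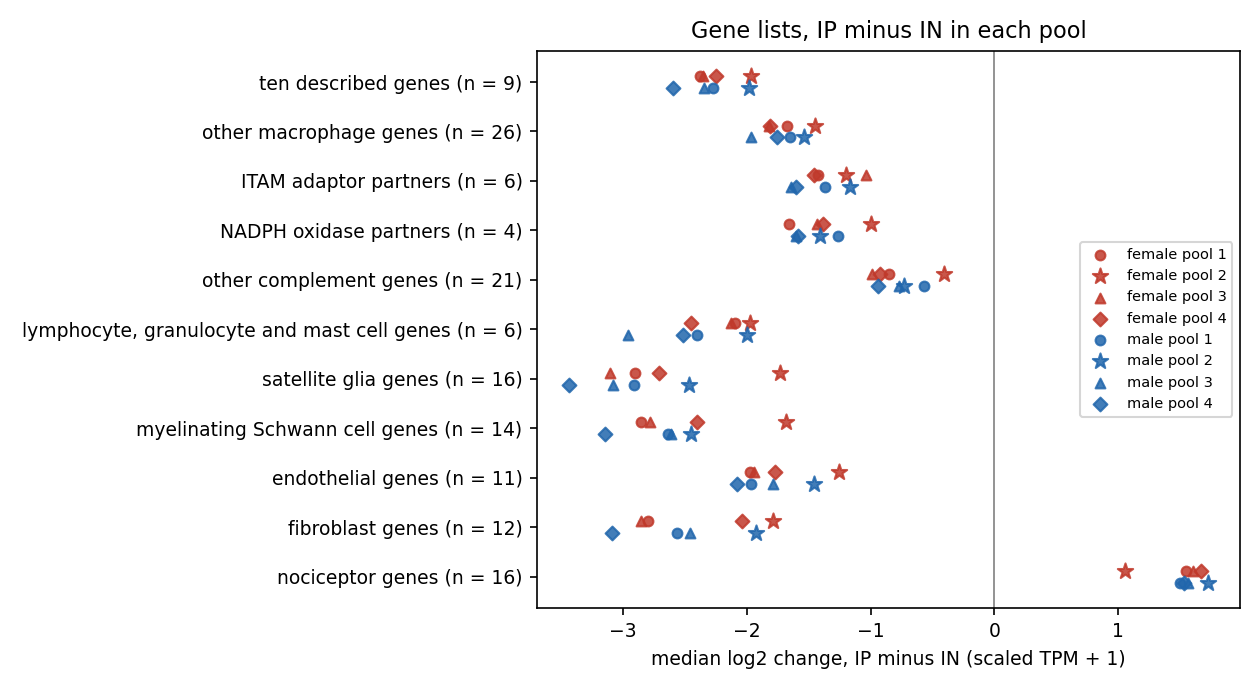
Median log2 change (scaled TPM with 1 added, IP minus IN) of the tested genes of 11 lists in each pool, female pools in red and male pools in blue, with the number of tested genes in brackets. Each list but that of the nociceptors lies below 0 in every pool, and in female pool 2 (red star) the glial medians are -1.73 and -1.69.

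The other genes of the complement system split. Of 43 listed 21 were tested, 13 lower and 6 higher (median log2 -0.72), where 38.9% of all genes tested were lower. Of the 21, 1 passed the filter through IN alone and 2 through IP alone, and so had to differ. C1s1 and C1ra, the proteases that pair with C1q, were at -2.16 and -1.19 (in deposited TPM C1ra did not pass, at -0.01 with adjusted p = 0.888), and the later components C3 and C4b at -1.92 and -2.20. The regulator Vtn was at -2.81. The complement receptor genes C3ar1 and C5ar1 were too low to be tested, at 0.0990 and 0.0999 scaled TPM in IP, against 1.07 and 0.837 in IN. Among the 6 higher was Cd55, a membrane regulator that splits the convertase. It was at 265 ± 45.8 scaled TPM in IP and 130 ± 7.16 in IN (log2 1.01 ± 0.08, limma adjusted p = 1.3e-06). Its copy Cd55b was at 47.5 ± 8.19 in IP and 12.24 ± 3.35 in IN (1.90 ± 0.12, adjusted p = 2.7e-07), with the SD over 8 libraries. Cd55 and Cd55b are near-identical genes, so how reads were split between them is uncertain. Also higher were Serping1 (0.59), C8g (0.52), Calr (0.46) and Masp1 (0.33). Of other membrane regulators listed, Cd59b (-0.54) and Csmd1 (-0.35) were lower. Cr1l (-0.10) and Cd59a (-0.01) did not pass (limma adjusted p = 0.35 and 0.94), and Cd46 was too low to be tested. In deposited TPM 12 were higher and 8 lower, where 94% of all genes called were higher and the median gene shifted by 1.84. With quantile normalization 4 were higher and 12 lower, where 61.1% of all genes called were higher. C1qa, C1qb and C1qc were lower under each of these scalings.

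The genes most like the 10 were sought among 12684 tested genes, by the distance of their log2 change from the median of the 10 genes, taken as root mean square over the 8 pools. The closest were Fkbp9 (0.114), Mrc1 (0.114), Gjb1 (0.127), Entpd2 (0.132) and Gng11 (0.134). Mrc1 encodes the mannose receptor of macrophages, at 0.877 ± 0.442 scaled TPM in IP and 7.28 ± 0.612 in IN, and Gjb1 the connexin of myelinating Schwann cells. Of the 10 genes themselves, Csf1r was at 0.088 and Ptprc at 0.104, whereas Cx3cr1 and Lyz2 were at 0.855 and 0.904. The distance was taken on TPM with 1 added and so depends on the level, and Cx3cr1 was the lowest and Lyz2 the highest gene. As IP percentages of IN, Cx3cr1 (8.99%) and Lyz2 (10.9%) lay within the range of the 10 genes, 6.75% (Ptprc) to 14.2% (C1qb).

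The study's title asks about sex differences in nociceptor translatomes, so the 10 genes were compared between female and male pools. In IP none of the 6 tested genes passed (0 of 6), where 0.0507% of 15776 genes did, and without the filter 0 of 10 passed, where 0.0188% of 31972 genes did. The log2 differences, female minus male, were 0.15 to 0.54 (limma adjusted p = 0.9999 for each), and 0 had an unadjusted p under 0.05, as 2.3% of genes did. Lyz2 had 3.88, 14.2, 4.61 and 6.26 scaled TPM in female IP libraries, against 4.26, 4.61, 4.73 and 3.00 in male ones. The sexes overlapped, and the difference of 0.54 had a 95% interval of -0.19 to 1.27. Without female pool 2 the differences ran from -0.06 to 0.20, so that pool set most of their size.

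In IN 0 of 9 tested genes passed, where 0.0824% of 13345 genes did, with differences of 0.03 to 0.16 (limma adjusted p = 0.96 to 0.99) and 0 at an unadjusted p under 0.05, as 4.76% of genes had. Lyz2 had 43.9, 68.3, 51.2 and 57.1 in female IN libraries, against 48.6, 36.7, 63.8 and 49.1 in male ones. Its difference of 0.16 had a 95% interval of -0.24 to 0.56, and that of C1qa, 0.13, one of -0.10 to 0.36. The median difference in IN was 0.13, against 0.02 without female pool 2 (range -0.07 to 0.11) and 0.06 without male pool 2. The change from IN to IP was also compared between sexes, and 0 of 9 genes passed, where 0.0186% of 16099 genes did (female minus male -0.02 to 0.38, limma adjusted p = 1). Without female pool 2 these differences ran from -0.07 to 0.14. Within females all 10 genes were lower in IP, where 33.6% of genes were, at log2 -2.90 to -1.45 (limma adjusted p = 0.00041). Within males all 9 tested were lower, where 34.8% of genes were, at -3.28 to -1.59 (limma adjusted p = 1.9e-05 to 5e-05). Fcer1g, Ptprc and Cybb passed the filter through IN alone in each sex, as did Cx3cr1 in females, and so had to differ. With deposited TPM and no filter 9 of 10 remained past the threshold in females, where 3.64% of genes were lower, and 8 of 10 in males, where 8.82% were. Those that missed were C1qb in females (adjusted p = 0.057) and C1qb and C1qc in males (adjusted p = 0.064 and 0.055).

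**Figure D5:**
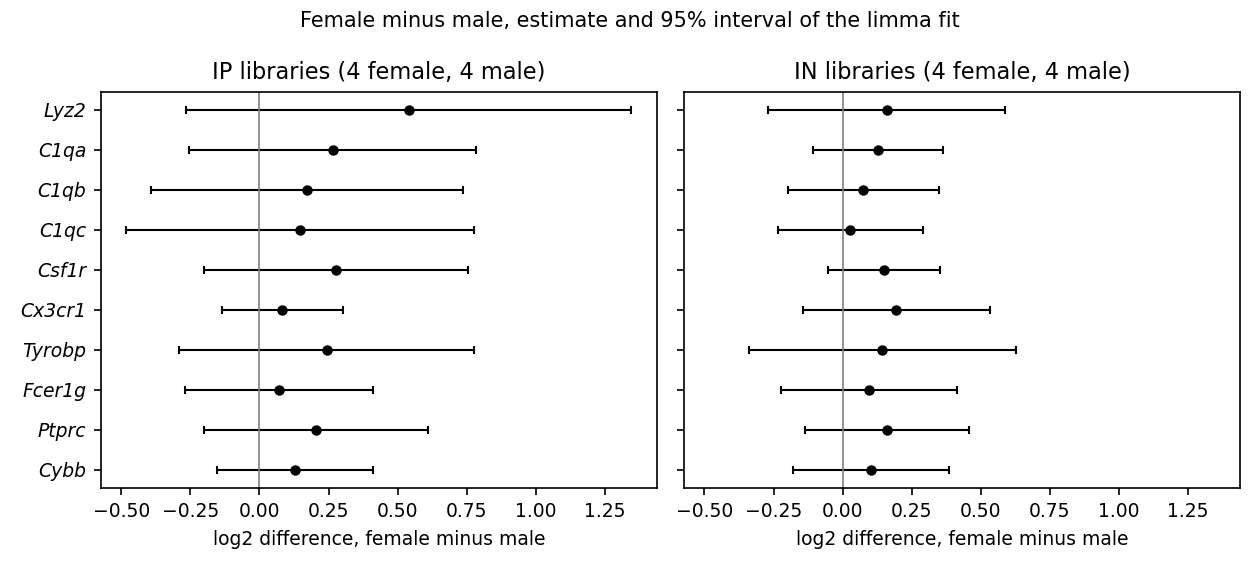
Log2 difference of scaled TPM with 1 added, female minus male, with its 95% interval from the limma fit without a filter on low values, for the 10 genes in IP libraries (left) and IN libraries (right), 4 female and 4 male each. Every interval includes 0, and that of Lyz2 in IP is the widest, from -0.27 to 1.35.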

How the data were processed

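RNA-seq was run on 16 libraries, IP and IN of 8 pools, and samples were grouped by the labels. FastQC, STAR 2.2.1, StringTie 1.3.5 and the build GRCm38.p5 are named per the submitters' processing notes. The annotation and the use of strand are not stated there. Libraries were made with ribosomal RNA depletion, per the labels' protocols. The deposited values were read as TPM as the authors computed them, because each library sums to 1000000, although the header ends in Coverage. Depth is therefore unknown.

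Entries of a gene ID were summed, which gave 53379 IDs, 53274 of them with a GENCODE M21 gene type, and 92 ERCC entries were left out. No libraries were identical (0 pairs). TPM were scaled by the median of ratios (factors 1.65 to 2.69 for IP and 0.375 to 0.532 for IN). Genes entered a fit with a mean of at least 1 deposited TPM in either fraction. In R 4.3.3, limma 3.58.1 (lmFit, eBayes with trend, two-sided) was fitted to log2(scaled TPM + 1) over all genes, with Benjamini-Hochberg adjustment over all genes tested and a threshold of 0.05, for 6 comparisons. The pool was a block for IP minus IN and for the interaction, since the series design text pairs the fractions of a pool. As a check, deviations of the IP and IN library of a pool from their group means correlated across genes at 0.0136, 0.116, 0.198 and 0.414 in female and 0.00665, 0.276, 0.208 and 0.323 in male pools. The fit was tested on simulated data. Summaries and figures were made with matplotlib 3.10.9, numpy 2.4.6 and pandas 2.3.3 under Python 3.11.15.

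The 10 genes and the 12 other lists (219 symbols in all, 219 matched) were chosen with earlier results of these data known. Named genes were the 10, their 3 ligands, Scn10a, from each other list the 2 with the most positive and the 2 with the most negative change, and the 5 genes closest in pattern. The later complement genes C1s1, C1ra, C3, C4b, C3ar1 and C5ar1, and Adgre1, Cd68, Cd3d, Cd3e and Cd3g, were named after their values were seen. So were the complement genes Serping1, C8g, Calr, Masp1, Cd59a, Cd59b, Cr1l, Csmd1 and Cd46, and the macrophage list genes Aif1, Cd83 and Lcp1. Alternatives tried were other scalings, pseudocounts of 0.1 and 5, no filter, no trend, the block, and leaving out pools. Deposited TPM without the filter was added after seeing the data. Proteins are not shown here, and some genes that the naming rule picks are not reported here.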

Additional observations from a re-analysis of the deposited data

Results flagged for a closer look

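In groups of 4 libraries, 4 gene and group combinations of 40 had a library far from the other 3 of its group, where chance gives about 1 in 20. Cx3cr1 in female IP was at 0.5052 scaled TPM in pool 2, against 0.1134 to 0.1629 in the other female IP libraries. Cybb in female IP was at 0.6928 in pool 2, against 0.1735 to 0.2037. C1qb in female IN was at 13.78 in pool 2, against 9.81 to 10.47, so that 3 of the 4 values belong to female pool 2. Cybb in male IN was at 3.185 in pool 3, against 2.322 to 2.423.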

How the results depend on the processing

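Counts of the 10 genes past the threshold stayed at 9 or 10 in both sexes together (18 alternatives), 9 or 10 in females (13) and 8 to 10 in males (13), and at 0 in each sex comparison and the interaction (16 each). Leaving out 1 pool gave changes in both sexes of -3.22 to -3.01 for Lyz2 and -1.60 to -1.55 for Cybb. With pseudocounts of 0.1 and 5 the median change was -3.11 and -1.14, against -2.25. The paired analysis with the pool as a block and the fit with no replicate block gave the same calls for the 10 genes, with 12783 and 12463 genes called in all. Female and male pools share only a number, with correlations of deviations from -0.299 to 0.101. That replicate block left 0 of the 10 genes called, and 5 instead of 8 genes in IP and 6 instead of 11 in IN.

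Some sex differences that had not passed changed sign. Leaving out 1 pool, C1qb ran from -0.055 to 0.31 and C1qc from -0.062 to 0.31 in IP. In IN, C1qb ran from -0.024 to 0.13, C1qc from -0.067 to 0.10 and Tyrobp from -0.0019 to 0.29. For the interaction, C1qa ran from 0.021 to 0.25, C1qb from -0.032 to 0.22, C1qc from -0.040 to 0.29, Tyrobp from -0.0035 to 0.19, Cybb from -0.029 to 0.085, Fcer1g from -0.10 to 0.10, Csf1r from -0.0042 to 0.24 and Ptprc from -0.069 to 0.11. With deposited TPM the interaction was -0.020 for C1qa, -0.071 for C1qb, -0.056 for C1qc, -0.013 for Tyrobp and -0.014 for Cybb. It was 0.020 for Fcer1g with a pseudocount of 0.1, and -0.0071 for Csf1r, -0.015 for Tyrobp, -0.040 for Ptprc and -0.017 for Cybb with one of 5. The cause was not tested.

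Over all genes, the calls for IP minus IN were 51% higher as reported, 94% with deposited TPM, 61.1% with quantile normalization and 35.1% with protein-coding scaling, and 32.8% without the filter, which tests more genes (21019 calls against 12783). In males that gave 17144 calls against 11268. Deposited TPM without the filter gave 21401 calls in both sexes, 17279 against 10649 in females and 19960 in males. Calls for female minus male in IN were 7 with deposited TPM against 11, and for the interaction 11 with deposited TPM, 1 with quantile normalization and 0 without the filter, against 3. Leaving out 1 pool gave 0 (female 3 or male 1) to 6 (female 2) calls for the interaction, 5 (female 2 or male 1) to 12 (female 4) in IP and 7 (male 3 or 4) to 11 in IN. TPM hold no depth, so what depth limits is unknown. The 4 pools per sex limit what a sex difference can show.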

Other observations

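Some lysosomal and lectin genes on the macrophage list went against the 10 genes. Ctsb averaged 365 ± 34.6 scaled TPM in IP and 195 ± 8.57 in IN (SD over 8 libraries). The progranulin gene Grn was at 40.7 ± 5.18 in IP and 27.6 ± 2.63 in IN, and Lgals3 at 6.47 ± 1.18 in IP and 3.81 ± 0.651 in IN. Their log2 changes were 0.90 for Ctsb, 0.54 for Grn and 0.63 for Lgals3, past the threshold in limma, and all 3 were higher under each of the other scalings. Grn was named after its values were seen. Rac1 of the oxidase list spread far within both fractions, from 18.6 to 51.2 scaled TPM in IP and from 14.0 to 62.8 in IN.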
